A study of Homo sapiens with 16 samples.

Results

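The B7 family holds surface ligands that T cells read beside the antigen. Its members examined here were VTCN1 (B7-H4), CD274 (PD-L1), PDCD1LG2 (PD-L2), CD276 (B7-H3), CD80 (B7-1) and CD86 (B7-2), 6 of the 17553 named genes, with 9 of the 24530 probes of an Illumina bead array. VTCN1 was picked from these data for its higher signal with doxycycline (Dox) and in the line that overexpresses wild-type H1.4, so its values are given as a description, with no test in any comparison. The other 5 genes were taken because they belong to the family. Of the 9 probes, 2 were detected on enough arrays to be tested, 1 of VTCN1 and 1 of CD276, among 11258 tested in all.

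The cells were T47D-MTVL, a luminal breast cancer line that carries an integrated luciferase reporter under the MMTV promoter. The 16 arrays fell into 8 groups of 2. Group K26 overexpressed HA-tagged H1.4 with the K26A change, and group WT overexpressed HA-tagged wild-type H1.4. Both lines were grown without treatments. The other 3 lines carried a Tet-KRAB repressor, a red fluorescent protein and a hairpin induced by Dox: sh225 against multiple linker histone H1 variants, sh120 against H1.4, and Ctrl a random hairpin. They had been sorted for red and green fluorescence after 3 days of Dox and expanded without it. Groups sh225_Dox, sh120_Dox and Ctrl_Dox then had 6 days of Dox at 2.5 µg/ml, were passaged on day 3 and switched to medium without serum on day 4, and groups sh225, sh120 and Ctrl had no Dox. The sources used here do not state whether the untreated arms and the K26 and WT cells also went without serum, or whether any line was 1 clone.

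VTCN1, CD274, PDCD1LG2 and CD276 act mainly as brakes. CD274 and PDCD1LG2 bind PD-1 on T cells, while no receptor of VTCN1 or CD276 is firmly established. CD80 and CD86 bind CD28, which activates T cells, and CTLA-4, which restrains them, and are mostly made by antigen-presenting cells. VTCN1 protein is known from many breast, ovarian and endometrial carcinomas and is scarce in most healthy tissues. CD274 is a textbook target of interferon gamma, which acts through its receptor, JAK kinases and IRF1. Linker histone H1 sits on nucleosomes where their DNA enters and exits.

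The start regions of the 3 genes on which the account turns are shown, since VTCN1 and CD276 were the measured members and CD274 is the member with a known interferon route. Each holds 250 bases before the annotated start and 50 from it, in build GRCh38.p14 and from RefSeq, read along the gene's own strand. They lie at chr1:117210878-117211177 (minus strand) for VTCN1, chr9:5450292-5450591 (plus strand) for CD274 and chr15:73684133-73684432 (plus strand, the upstream of its pair of windows) for CD276. Capitals mark every match of the motifs that were searched on both strands.
VTCN1: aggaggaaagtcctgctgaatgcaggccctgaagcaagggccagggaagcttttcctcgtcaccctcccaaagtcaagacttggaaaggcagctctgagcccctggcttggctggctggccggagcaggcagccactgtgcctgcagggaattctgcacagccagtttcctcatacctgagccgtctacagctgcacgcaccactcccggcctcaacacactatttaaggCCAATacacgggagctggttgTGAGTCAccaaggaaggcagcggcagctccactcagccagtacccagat
CD274: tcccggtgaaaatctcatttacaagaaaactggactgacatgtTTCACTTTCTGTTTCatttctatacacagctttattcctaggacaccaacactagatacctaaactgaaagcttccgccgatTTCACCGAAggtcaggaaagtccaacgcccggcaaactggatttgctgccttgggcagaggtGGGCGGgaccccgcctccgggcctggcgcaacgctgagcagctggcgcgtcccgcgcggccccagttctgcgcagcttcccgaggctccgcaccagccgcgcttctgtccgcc
CD276: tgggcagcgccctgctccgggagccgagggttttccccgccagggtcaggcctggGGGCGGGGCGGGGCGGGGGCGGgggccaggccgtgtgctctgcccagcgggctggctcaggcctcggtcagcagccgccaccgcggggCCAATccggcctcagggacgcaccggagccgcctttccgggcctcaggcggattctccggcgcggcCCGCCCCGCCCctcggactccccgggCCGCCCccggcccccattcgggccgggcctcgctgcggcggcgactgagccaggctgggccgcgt
The windows differed in CpG content, with 7 CpG dinucleotides in VTCN1, 22 in CD274 and 37 in CD276, against a median of 14 over 35116 windows of the same length. VTCN1 held 1 CCAAT box 20 bases before the start and 1 AP-1 match (TGANTCA) at base 2 of the transcript. CCAAT occurred in 34.61% and TGANTCA in 7.709% of all windows. CD274 held 2 overlapping matches of the interferon-stimulated response element core (GAAANNGAA, in 8.107% of windows), at -207 and -201. It also held 1 interferon gamma activated site (TTCNNNGAA, in 7.657%) at -125 and 1 GC box (GGGCGG, in 44.95%) at -63. CD276 held 7 GC box matches, some of which overlap, and 1 CCAAT box at -107. The steroid receptor half-site AGAACA (14.79% of windows) and the TATA box TATAAA (11.53%) were in none of the 3 windows. A match is a run of letters, and none was shown to be bound here. Windows were found for 5 of the 6 members, PDCD1LG2 being the other.

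Between 9477 and 10286 probes were detected per array (detection p under 0.01), and replicates correlated at r = 0.988 to 0.993 across probes. Array medians were 97.65 to 105.4 on the arrays numbered JM9 to JM16 in the labels (K26, WT, sh225_Dox and sh225) and 78 to 89.8 on JM1 to JM8 (sh120_Dox, sh120, Ctrl_Dox and Ctrl). K26 and WT against Ctrl therefore cross these 2 runs of label numbers, and both lines were also set against untreated sh225, within the second run. H1-2, a target of the sh225 hairpin, fell by 2.75 ± 0.15 (log2 difference ± SE, adjusted p = 5.03e-11) with Dox in that line. All 12 luminal epithelial marker genes were tested, against 2 of 15 leukocyte genes (CD14 and CD68), 1 of 6 basal, 1 of 7 fibroblast and 0 of 5 endothelial genes on the array. Precision is limited by having 2 arrays a group, with a median SE of 0.155 for a log2 difference between groups. No label calls the replicates separate cultures, so the p-values reflect array-to-array spread that may be technical.

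VTCN1 was read by probe ILMN_1753101 and detected on 14 of 16 arrays. Deposited intensities, for replicates 1 and 2, were 453.9 and 369.6 in K26 and 708.4 and 546.4 in WT. They were 130 and 159.6 in sh225_Dox, against 116.7 and 114.9 in sh225. They were 396.5 and 346.5 in sh120_Dox, against 111.8 and 110.8 in sh120. The Ctrl line gave 284.7 and 294.5 with Dox and 118.6 and 115 without. WT, sh120_Dox, K26 and Ctrl_Dox thus stood far above the other 4 groups, and sh225_Dox was the lone Dox group near the untreated level. The 2 arrays that missed detection were those of sh225, just beyond the limit of 0.01, with the detection software's values at 0.01504 and 0.01203.

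**Figure D1:**
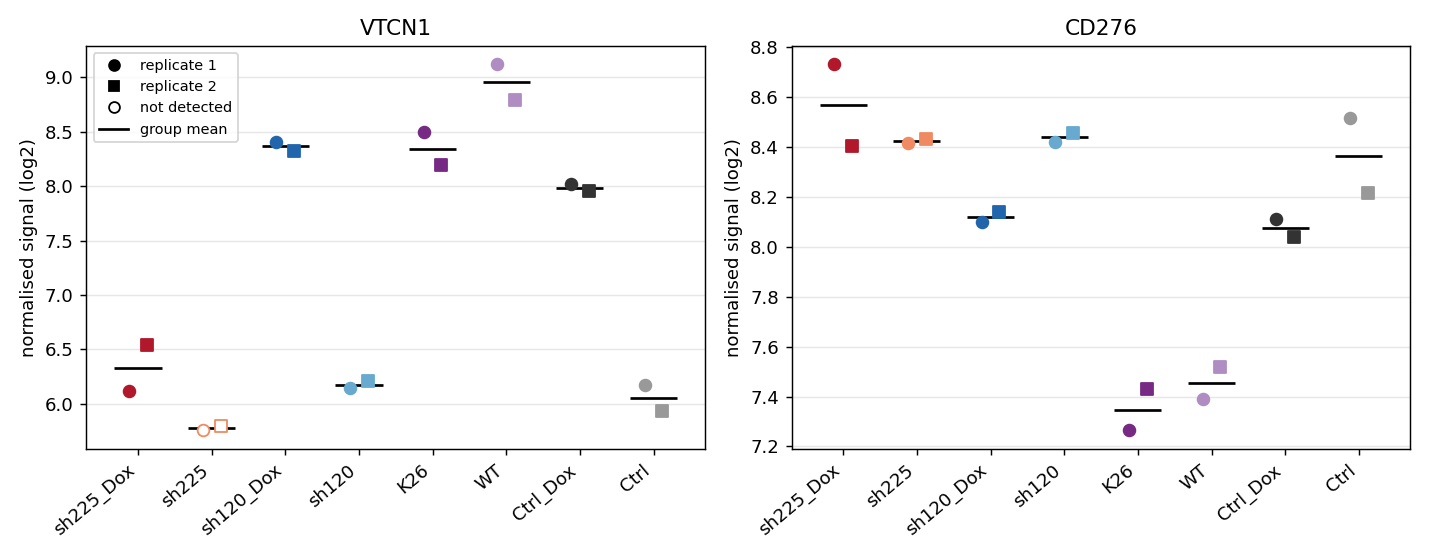
Normalised log2 signal of the VTCN1 and CD276 probes on each array, by group (circles replicate 1, squares replicate 2, bars the group mean, open symbols not detected). VTCN1 lies between 7.95 and 9.12 in sh120_Dox, K26, WT and Ctrl_Dox and at 6.54 or lower elsewhere, while CD276 is lowest in K26 and WT, at 7.26 to 7.52.

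After background correction and quantile normalisation, mean VTCN1 signal on the log2 scale ran 8.95 ± 0.23 in WT (SD, n = 2), 8.36 ± 0.06 in sh120_Dox, 8.34 ± 0.22 in K26 and 7.98 ± 0.05 in Ctrl_Dox. It went on with 6.33 ± 0.30 in sh225_Dox, 6.18 ± 0.05 in sh120, 6.06 ± 0.17 in Ctrl and 5.78 ± 0.03 in sh225. Neighbours in this order whose arrays overlapped were sh120_Dox and K26, sh225_Dox and sh120, and sh120 and Ctrl. The widest step between neighbours, 1.65, separated Ctrl_Dox from sh225_Dox.

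With Dox, VTCN1 was 2.19 ± 0.17 higher in the sh120 line (log2 difference ± SE), a ratio of 4.55, and 1.93 ± 0.17 higher in the Ctrl line, a ratio of 3.81. Among the 11258 probes these were the 5th and the 2nd highest differences, as the choice of the gene on Dox would favour. In the sh225 line the difference was 0.55 ± 0.17. Since neither sh225 array was detected, a bound was also taken, by which VTCN1 was at least 1.40-fold higher in sh225_Dox. That bound sets the bright group's mean against the higher, on each dim array, of the probe's own value and the lowest signal detected there. Like every value given below as at least a fold, it is a point value under the main processing. It allows for the detection floor but not for array spread or background handling, so smaller sizes are possible. The sh225 value was 0.77 without sh225_Dox replicate 1 and 0.34 without sh225_Dox replicate 2. So a line with a random hairpin showed nearly the VTCN1 difference of the H1.4 hairpin line, with a gap between the pair of 0.26 ± 0.24 (95% confidence interval -0.24 to 0.75). The Dox difference of the sh225 line minus that of the Ctrl line was -1.37 ± 0.24 (-1.87 to -0.88), and minus that of the sh120 line -1.63 ± 0.24 (-2.12 to -1.14), both with the undetected sh225 arrays at their measured values. Each pair of these 3 gaps shares the arrays of a line, and the third is the second minus the first, so it is no separate result. VTCN1 was picked for its rise with Dox, which may widen gaps to the lines with large rises. The intervals are therefore no test. The sh225 arrays are of the second run of label numbers and the sh120 and Ctrl arrays of the first, but each Dox difference was taken within a run.

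Without Dox the 3 hairpin lines lay close together in VTCN1. Untreated sh225 minus Ctrl was -0.28 ± 0.17 (95% confidence interval -0.63 to 0.07), with sh225 undetected on both arrays, and untreated sh120 minus Ctrl was 0.12 ± 0.17 (-0.23 to 0.47).

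Without any Dox, the overexpression lines carried VTCN1 signal as high as that of sh120_Dox (K26) or higher (WT). Against Ctrl, VTCN1 was 2.29 ± 0.17 higher in K26, a ratio of 4.88, and 2.90 ± 0.17 higher in WT, a ratio of 7.45. The WT value was the 6th highest difference of all probes, as the choice of the gene on WT would favour. Within the run of label numbers of K26 and WT, VTCN1 was set against untreated sh225. It was at least 5.63-fold higher in K26 and at least 8.59-fold higher in WT. The difference K26 minus WT was -0.61 ± 0.17 (-0.96 to -0.26), and neither K26 array reached either WT array. The choice of the gene on WT favours a gap in this direction, and the interval is no test. These comparisons share the Ctrl or the sh225 arrays with each other and with the Dox comparisons of those lines. The log2 differences of this dim probe depended on background handling: on the authors' series matrix values VTCN1 was 1.21 higher in K26 and 1.68 higher in WT than in Ctrl, and the Dox difference was 0.19 in sh225, 1.18 in sh120 and 0.96 in Ctrl.

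**Figure D2:**
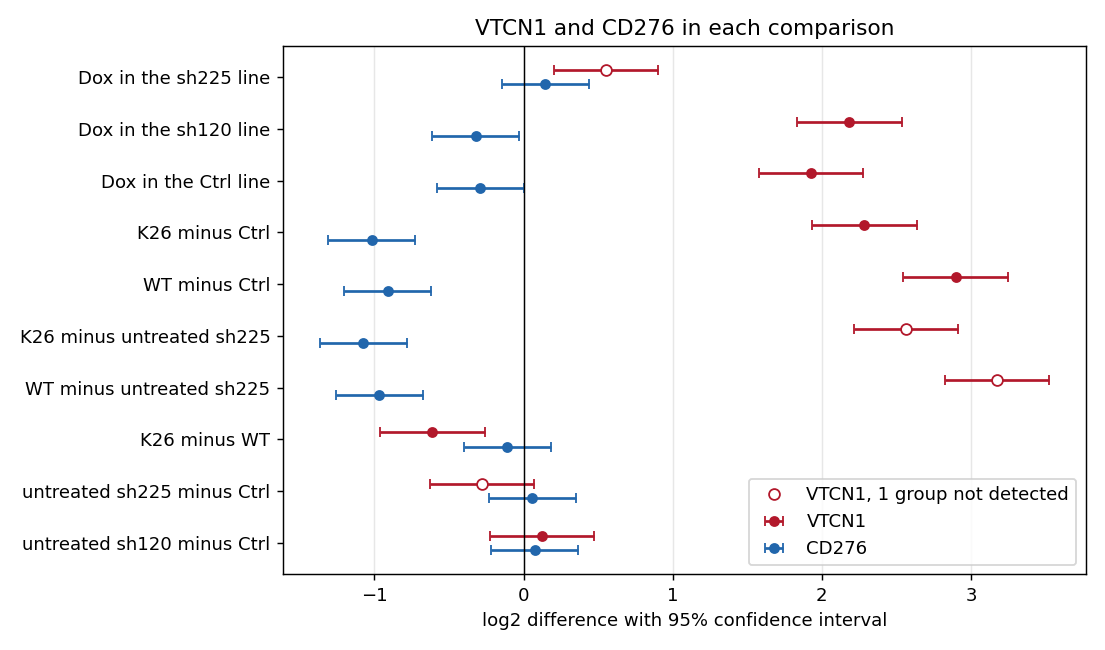
Log2 differences with 95% confidence intervals for the VTCN1 probe (red) and the CD276 probe (blue) in 10 comparisons. The VTCN1 intervals are no test, since the gene was picked for its rise with Dox and in WT. Open symbols mark VTCN1 differences from the undetected sh225 arrays, for which bounds were also taken (at least 1.40-fold with Dox, 5.63-fold in K26 and 8.59-fold in WT). The bounds make no allowance for array spread. VTCN1 is 1.93 to 2.90 higher in the 4 comparisons of sh120_Dox, Ctrl_Dox, K26 and WT with detected arrays, while CD276 is 0.91 to 1.08 lower in the 4 comparisons of K26 or WT with a hairpin line.

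CD276, mostly described as a brake on T cells and made by many carcinomas, was detected on all 16 arrays by probe ILMN_2365307. Its intensities were 223.7 and 241.5 in K26 and 250.8 and 261 in WT. They were 502.8 and 445.7 in sh225_Dox, against 406.4 and 389.1 in sh225. They were 331.4 and 314.4 in sh120_Dox, against 335.8 and 342.7 in sh120. The Ctrl line gave 299.1 and 311.3 with Dox and 384.2 and 357.5 without. K26 and WT were thus the lowest 4 arrays, below every hairpin array, although their arrays had the higher medians.

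CD276 was lower in both overexpression lines than in the hairpin lines. Rises and falls named for K26 and WT are differences from a hairpin line. Construct, line history and possibly medium differ as well and cannot be told apart from H1.4 overexpression. Normalised means were 7.35 ± 0.12 in K26 and 7.45 ± 0.09 in WT, against 8.36 ± 0.21 in Ctrl (log2, SD, n = 2). The difference from Ctrl was -1.02 ± 0.14 in K26 (adjusted p = 7.37e-06, limma) and -0.91 ± 0.14 in WT (adjusted p = 7.24e-05). Of all probes, 26.9% were called lower in K26 and 15.2% in WT in the same comparisons. Against untreated sh225 it was -1.08 ± 0.14 in K26 (adjusted p = 3.26e-06) and -0.97 ± 0.14 in WT (adjusted p = 2.91e-05), where 28.5% and 17.7% of all probes were called lower. K26 and WT did not pass the test against each other (-0.11 ± 0.14, adjusted p = 0.629, 95% confidence interval -0.40 to 0.18), a comparison in which 21.8% of all probes were called.

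With Dox, CD276 did not pass the test in any hairpin line. It was 0.14 ± 0.14 in the sh225 line (adjusted p = 0.453, 95% confidence interval -0.15 to 0.44), where 34% of all probes were called. It was -0.32 ± 0.14 in the sh120 line (adjusted p = 0.130, -0.61 to -0.03), where 15.1% were called, and -0.29 ± 0.14 in the Ctrl line (adjusted p = 0.329, -0.58 to 0.00164), where 2.66% were called. The arrays of sh120_Dox and Ctrl_Dox all lay below those of their untreated line. The sh225 value turned to -0.02 without sh225_Dox replicate 1, and the Ctrl value was -0.14 without Ctrl replicate 1 and -0.44 without Ctrl replicate 2. The Dox effect did not differ between lines beyond the threshold: sh225 minus Ctrl was 0.43 ± 0.20 (adjusted p = 0.156), sh120 minus Ctrl -0.03 ± 0.20 (adjusted p = 0.970) and sh225 minus sh120 0.46 ± 0.20 (adjusted p = 0.142). Without sh225_Dox replicate 1, sh225 minus Ctrl was 0.27 and sh225 minus sh120 0.30, and without Ctrl replicate 1, sh225 minus Ctrl was 0.28. These tests called 15.4%, 0.266% and 13% of all probes, in the same order. Untreated sh225 and untreated sh120 differed from Ctrl by 0.06 ± 0.14 (adjusted p = 0.888) and 0.07 ± 0.14 (adjusted p = 0.882), with 0.373% and 0.0178% of probes called.

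The 4 groups highest in VTCN1 were the 4 lowest in CD276. From low to high, CD276 ran K26, WT, Ctrl_Dox, sh120_Dox, Ctrl, sh225, sh120 and sh225_Dox. The orders were not mirror images otherwise, since sh225, the lowest in VTCN1, stood below sh120 and sh225_Dox in CD276. Pearson r was -0.847 over the 8 group means and -0.835 over the 16 arrays, as a description, since the arrays form clusters and the groups share lines and Dox.

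**Figure D3:**
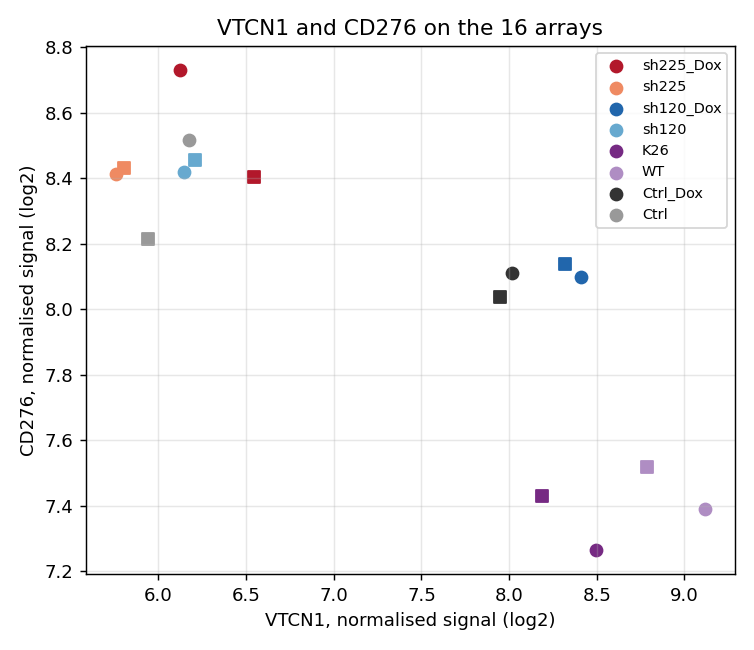
Normalised log2 signal of CD276 (vertical axis) against VTCN1 (horizontal axis) on the 16 arrays, coloured by group, with circles for replicate 1 and squares for replicate 2. K26 and WT sit at the lower right, sh120_Dox and Ctrl_Dox at the right in between, and the other 4 groups at the upper left.

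The other members were not detected in these cells. A second CD276 probe, ILMN_1683747, was detected on 0 of 16 arrays, with a lowest detection p of 0.01053 and intensities of 77.6 to 110.7. CD274 (PD-L1) was detected on 0 of 16 arrays, with intensities of 64.2 and 59.4 in K26, 62.6 and 63 in WT, 65 and 61.6 in sh225_Dox and 60.2 and 57.7 in sh225. In the other run of label numbers they were 47.9 and 54.6 in sh120_Dox, 51 and 47.4 in sh120, 53 and 48.2 in Ctrl_Dox and 49.6 and 53 in Ctrl. Its detection p lay between 0.833 and 0.992, so its signal was below that of most negative controls everywhere. PDCD1LG2 gave intensities of 40.7 to 64.5 and a detection p of 0.842 or higher on every array.

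The costimulatory pair gave no detected signal either. CD80 had intensities of 55.1 to 93.2 with a lowest detection p of 0.0857. The 3 CD86 probes had intensities of 43.8 to 68.3, 66.8 to 99.3 and 77.1 to 116.8, with lowest detection p of 0.752, 0.0406 and 0.0120. For these genes the arrays give no level, and a change below the detection limit was not measurable. When all 24530 probes were fitted without the detection filter, 0 of the 7 undetected member probes passed limma's test in any of 13 comparisons. At an unadjusted p under 0.05 there was 1 of 7 for K26 against WT and 1 of 7 for K26 against untreated sh225, both the CD86 probe ILMN_1782560 (0.45 and 0.41 higher in K26).

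**Figure D4:**
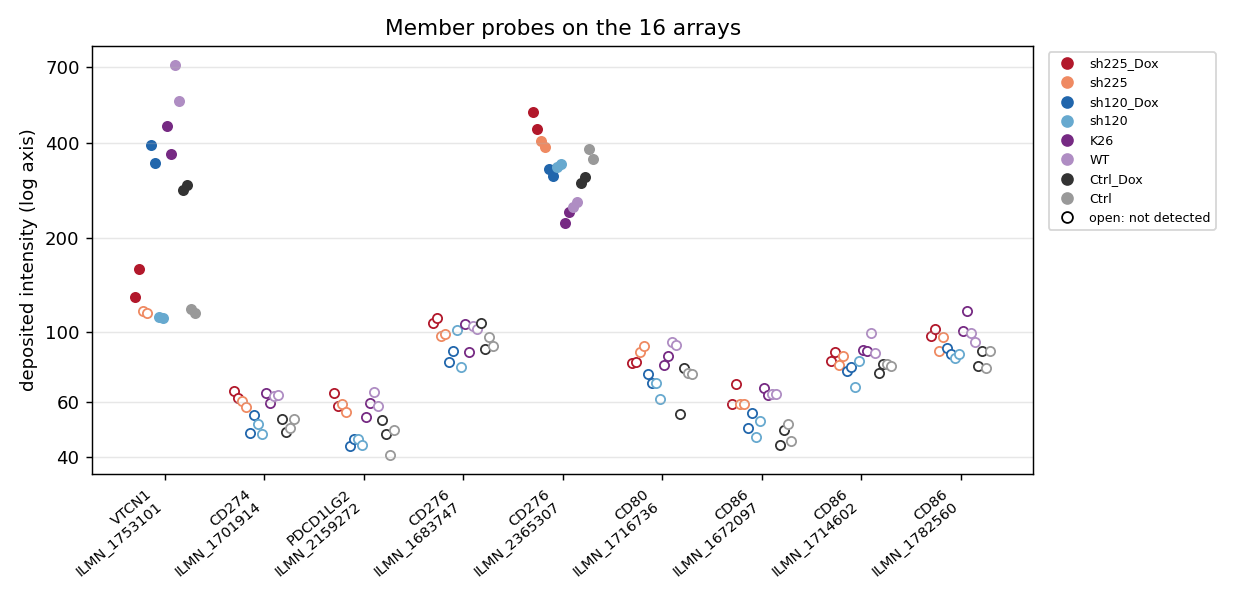
Deposited intensity (log axis) of the 9 member probes on the 16 arrays, coloured by group, with filled points for detected and open points for not detected. The VTCN1 probe and 1 CD276 probe have detected points, up to 708.4 and 502.8, and the points of the other 7 probes are all unfilled, at 116.8 or lower.

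Most relatives of the members were also detected on too few arrays to be tested. Of 14 further B7 and butyrophilin genes on the array, 4 were tested: BTN2A1, BTN3A1 and BTN3A2, butyrophilins that take part in the sensing of phosphoantigens by gamma delta T cells, and ICOSLG, the ligand of ICOS. HHLA2 and VSIR, which are inhibitory B7 relatives, were among the 10 not tested. With Dox in the sh225 line, 2 of the 4 rose and 0 fell, against 16.3% of all probes called higher and 17.8% called lower. The median difference was 0.76, against 0.02 over all probes. BTN2A1 averaged 8.70 ± 0.08 in sh225_Dox and 7.62 ± 0.35 in sh225 (SD, n = 2), a difference of 1.09 ± 0.16 (adjusted p = 3.00e-05). BTN3A1 averaged 6.69 ± 0.21 in sh225_Dox and 5.74 ± 0.32 in sh225, a difference of 0.95 ± 0.21 (adjusted p = 0.00141). Dox changed 0 of the 4 in the sh120 line and 0 of the 4 in the Ctrl line by limma's test, with 1 at an unadjusted p under 0.05 in each, where 15.1% and 2.66% of all probes were called.

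BTN2A1 was also higher in both overexpression lines. It averaged 9.25 ± 0.05 in K26 and 8.64 ± 0.21 in WT, against 7.80 ± 0.13 in Ctrl, differences of 1.45 ± 0.16 (adjusted p = 5.52e-07) and 0.83 ± 0.16 (adjusted p = 0.000643). Called higher in these comparisons were 1 of 4 relatives in K26, against 23.8% of all probes, and 2 of 4 in WT, against 15.4%, with 0 lower in each. The other was BTN3A2, at least 1.22-fold above Ctrl, where it was undetected, in WT (adjusted p = 0.0492), a call lost in 8 of 15 alternatives, among them the 4 that each left out 1 Ctrl or WT array, with an adjusted p of up to 0.217. The median difference of the 4 was 0.06 in K26 and 0.58 in WT.

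Receptors of the ligands are T cell genes in the main, and of 7 on the array 1 was tested. This was RGMB, a coreceptor of bone morphogenetic proteins that also binds PD-L2, with 2 probes that disagreed. ILMN_1710479 was at least 1.27-fold higher in sh225_Dox than in sh225, where it was undetected (adjusted p = 0.00393). Outside sh225_Dox it was detected on 1 array only, of Ctrl_Dox. The probe thus entered the test through the group where it is high, so this adjusted p adds no independent support. ILMN_1776213 was 1.35 ± 0.19 higher in K26 than in Ctrl (adjusted p = 1.08e-05) and 0.91 ± 0.19 higher in WT (adjusted p = 0.00140). CTLA4, ICOS, BTLA, NCR3, TMIGD2 and TREML2 were not tested for want of detection.

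Checkpoint ligands outside the B7 family gave 15 tested probes of 11 genes, of 19 genes on the array. With Dox in the sh225 line 4 probes rose and 1 fell, against 16.3% of all probes called higher and 17.8% called lower, with a median difference of 0.23. CEACAM1, an adhesion molecule also described as a ligand of TIM-3, was at least 3.02-fold higher by ILMN_1716815 (adjusted p = 2.02e-06), which averaged 7.44 ± 0.09 in sh225_Dox and was undetected in sh225. Its ILMN_2371724 was 0.92 ± 0.17 higher (adjusted p = 0.000305). CD47, a signal against phagocytosis, rose by 0.59 ± 0.14 (adjusted p = 0.00370) by 1 of its 2 probes, ILMN_1771333. TNFSF9 rose by 0.58 ± 0.19 (adjusted p = 0.0238) and CD58, an adhesion ligand of CD2, fell by 0.44 ± 0.14 (adjusted p = 0.0196). The TNFSF9 call was lost without sh225 replicate 1, sh225 replicate 2 or sh225_Dox replicate 1 and without the detection filter. The CD58 call was lost without sh225 replicate 1 or sh225_Dox replicate 2, with median scaling and in a fit of those groups alone.

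In the sh120 line with Dox, 2 of these 15 probes rose and 0 fell, against 7.21% of all probes called higher and 7.87% called lower. FGL1, a liver protein that binds LAG-3, was at least 2.37-fold higher in sh120_Dox (7.20 ± 0.11, SD, n = 2) than in sh120, where it was undetected (adjusted p = 4.58e-08). It was detected in no other group. The probe thus entered the test only through the group where it is high, so its adjusted p adds no independent support. CD47 rose by 0.54 ± 0.14 by ILMN_1771333 (adjusted p = 0.0177), a call lost without sh120 replicate 1, sh120 replicate 2 or sh120_Dox replicate 2 (0.28). In the Ctrl line 0 of 15 were called in either direction by limma, against 1.28% and 1.38% of all probes, and 1 had an unadjusted p under 0.05. The median difference was 0.06 in the sh120 line and -0.15 in the Ctrl line.

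CD47 was lower in both overexpression lines than in Ctrl. By ILMN_1771333 it averaged 9.83 ± 0.15 in K26 and 9.68 ± 0.13 in WT, against 10.64 ± 0.16 in Ctrl, differences of -0.82 ± 0.14 (adjusted p = 0.000108) and -0.97 ± 0.14 (adjusted p = 5.36e-05). ILMN_2356991 was -1.001 ± 0.23 in WT (adjusted p = 0.00246), a call lost without WT replicate 2, at -0.53. Those were the 2 falls of the 15 probes in WT, with 0 rises, against 15.2% of all probes called lower and 15.4% called higher. In K26 1 rose, HLA-E (0.71 ± 0.15, adjusted p = 0.000779), which presents leader peptides to NK cell receptors, and 2 fell, against 23.8% of all probes called higher and 26.9% called lower. The other fall was NECTIN2, a ligand of TIGIT (-0.45 ± 0.15 by ILMN_1718303, adjusted p = 0.0211), a call lost without Ctrl replicate 1 (-0.25), K26 replicate 1 or K26 replicate 2 and with median scaling. Median differences were -0.03 in K26 and 0.01 in WT. Against untreated sh225, within the run, 3 probes were higher and 5 lower in K26, against 25.8% and 28.5% of all probes, and 1 was higher and 4 lower in WT, against 17.2% and 17.7%. Those lower in both included CD47 by ILMN_1771333 and TNFRSF14, a ligand of BTLA, at -0.81 ± 0.21 in K26 (adjusted p = 0.00271) and -0.78 ± 0.21 in WT (adjusted p = 0.00643). NECTIN2 probes disagreed in WT, with ILMN_2337336 lower (-0.61 ± 0.17, adjusted p = 0.00954) and ILMN_2255382 at least 1.02-fold higher (adjusted p = 0.0185), detected on 1 WT array and no sh225 array.

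The interferon gamma route to PD-L1 was measured in 11 of the 17 genes of this list read from the array. JAK2, SOCS1, SOCS3, IRF2, CIITA and NLRC5 were not tested for want of detection. With Dox in the sh225 line 5 of 11 rose and 0 fell, against 16.3% and 17.8% of all probes, with a median difference of 0.40 against 0.02 over all probes, although CD274 was undetected there. IRF9, a transcription factor of the interferon response, averaged 9.85 ± 0.03 in sh225_Dox and 8.17 ± 0.01 in sh225, a rise of 1.68 ± 0.15 (adjusted p = 4.75e-08). IRF1, the factor known to bind the CD274 response element, averaged 9.74 ± 0.23 in sh225_Dox and 8.20 ± 0.11 in sh225, a rise of 1.54 ± 0.18 (adjusted p = 1.57e-06). IFNGR1, a chain of the receptor, rose by 0.94 ± 0.11 (adjusted p = 2.99e-06) and NFKB1 by 0.62 ± 0.11 (adjusted p = 0.000212). STAT3 rose by 0.35 ± 0.11 (adjusted p = 0.0192), which did not pass without sh225 replicate 1 or sh225_Dox replicate 1, nor in a fit of those groups alone.

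IRF9 fell in the other hairpin lines. With Dox, sh120 cells had IRF9 at -1.25 ± 0.15 (adjusted p = 2.00e-05) and Ctrl cells at -1.63 ± 0.15 (adjusted p = 6.90e-07) relative to no Dox. It was the lone call among the 11 genes in each line, where 15.1% and 2.66% of all probes were called, and medians were -0.08 and -0.04. At an unadjusted p under 0.05 by limma there were 5 of the 11 in the sh120 line and 2 in the Ctrl line, IRF9 included.

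In the overexpression lines the route genes moved in both directions. In K26 4 of 11 were higher than in Ctrl and 3 lower, against 23.8% and 26.9% of all probes. In WT 6 were higher and 1 lower, against 15.4% and 15.2%, with medians of 0.26 and 0.45. The largest in K26 were MYC, a growth regulator (-1.002 ± 0.22, adjusted p = 0.000728), IRF1 (0.93 ± 0.18, adjusted p = 0.000219), CMTM4, which stabilises PD-L1 protein (0.84 ± 0.18, adjusted p = 0.000673), and IFNGR2, the other receptor chain (0.67 ± 0.10, adjusted p = 1.90e-05). The largest in WT were IRF1 (1.27 ± 0.18, adjusted p = 2.42e-05), IFNGR2 (0.88 ± 0.10, adjusted p = 2.70e-06), CMTM4 (0.70 ± 0.18, adjusted p = 0.00637) and NFKB1 (0.65 ± 0.11, adjusted p = 0.000188). CMTM4 turned to -0.02 in both lines on the series matrix values, and its WT call was also lost without Ctrl replicate 1 or WT replicate 1. Against untreated sh225, within the run, 4 of 11 were higher and 3 lower in K26, against 25.8% and 28.5% of all probes. In WT 6 were higher and 2 lower, against 17.2% and 17.7%. The largest there in K26 were MYC (-1.24 ± 0.22), CMTM4 (0.68 ± 0.18), JAK1 (-0.61 ± 0.15) and STAT3 (-0.56 ± 0.11). In WT they were IRF1 (0.82 ± 0.18), MYC (-0.68 ± 0.22), IFNGR2 (0.62 ± 0.10) and STAT3 (-0.58 ± 0.11). CD274 stayed undetected in K26 and WT.

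Leukocyte marker signal was low throughout. Mean log2 signal over the 26 leukocyte probes was 4.96 to 5.01 in K26 and 4.88 in WT, against 4.78 to 4.84 in the hairpin groups. Detected on at least 1 array were 2 of these probes in K26, 3 in WT and 1 in each hairpin group. The mean is thus mostly of undetected probes, so it gives no level for the leukocyte genes as a set. CD14 is among its probes, and the share of CD14 in the difference was not tested. CD14, undetected in all 6 hairpin groups, was at least 3.26-fold higher in K26 than in Ctrl (adjusted p = 8.94e-09). It was at least 1.54-fold higher in WT (adjusted p = 1.40e-05). The gene entered the test only through K26 and WT, so these p-values add no independent support. PTPRC, CD3E, LYZ, TYROBP and the other 9 leukocyte genes were not tested for want of detection. Luminal markers moved in the same lines, with 8 of 16 probes lower and 1 higher in K26, against 26.9% and 23.8% of all probes, and 6 lower and 1 higher in WT, against 15.2% and 15.4%. PGR and ESR1 were among the falls in both, and the rise in WT was TFF1, at least 2.20-fold above Ctrl, where it was undetected (adjusted p = 1.37e-05). With Dox, ACTA2, the lone gene of the basal list tested, rose in all 3 hairpin lines. The rise was 0.49 ± 0.12 in sh225 (adjusted p = 0.00277), 0.55 ± 0.12 in sh120 (adjusted p = 0.00437) and 0.62 ± 0.12 in Ctrl (adjusted p = 0.00384). The mean over the 7 basal probes was 5.41 to 5.44 in sh225_Dox, below the 5.45 to 5.46 of sh225. It was 5.42 to 5.48 in sh120_Dox against 5.36 to 5.39 in sh120, and 5.51 in Ctrl_Dox against 5.38 to 5.39 in Ctrl. CD68 rose by 0.53 ± 0.16 in the sh120 line (adjusted p = 0.0339). With Dox in the sh225 line, 3 of the 16 luminal probes rose (KRT18 by both probes, and TFF1) and 2 fell (CDH1 and KRT19). Of all probes, 16.3% were called higher and 17.8% lower there. In the sh120 line 2 rose (FOXA1 and PGR) and 1 fell (TFF1), against 7.21% and 7.87% of all probes. In the Ctrl line limma called 0, against 1.28% and 1.38%, with 2 at an unadjusted p under 0.05. The part of these shifts in the VTCN1 and CD276 values was not tested.

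Genes with the profile most like that of VTCN1 over the 8 group means were sought among 2760 genes whose means spanned at least 1 on the log2 scale. The 8 nearest by Pearson r were LRIG3 (0.938), JPH1 (0.932), SMAD6 (0.931), AVPI1 (0.926), MTAP (0.924), CGN (0.898), RPS6KB2 (0.896) and CPE (0.895). Each was higher with Dox in the sh120 and Ctrl lines and in both overexpression lines, as their choice by likeness to VTCN1 would favour. LRIG3, a membrane protein of the LRIG family, was 1.14 higher with Dox in the sh120 line, 0.58 higher in the Ctrl line and -0.32 in the sh225 line, and 1.26 higher in K26 and 1.24 higher in WT than in Ctrl. CGN, the tight junction protein cingulin, had Dox differences of 0.69 in the sh120 line, 0.46 in Ctrl cells and 0.000276 in sh225 cells, and 1.58 higher in K26 and 1.40 higher in WT. SMAD6, an inhibitor of bone morphogenetic protein signalling, had Dox differences of 0.70 in sh120 cells, 0.68 in Ctrl cells and 0.19 in sh225 cells.

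The 5 most opposite genes were TPD52L1 (-0.940), A4GALT (-0.940), NECAB2 (-0.937), HOXC4 (-0.934) and PRPF40B (-0.920). HOXC4, a homeobox factor, had Dox differences of -0.71 in sh120 cells, -0.41 in Ctrl cells and -0.00203 in sh225 cells, and -1.13 in K26 and -1.38 in WT against Ctrl. None of the 13 spanned as far as VTCN1. These correlations rest on 8 means that share lines and Dox, and they do not rank firmly. Of the 8 nearest genes, 6 were kept by Pearson r over 16 arrays and 0 by Spearman rho over the 8 means. Of the 5 opposite genes, 4 and 0 were kept by these measures.

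**Figure D5:**
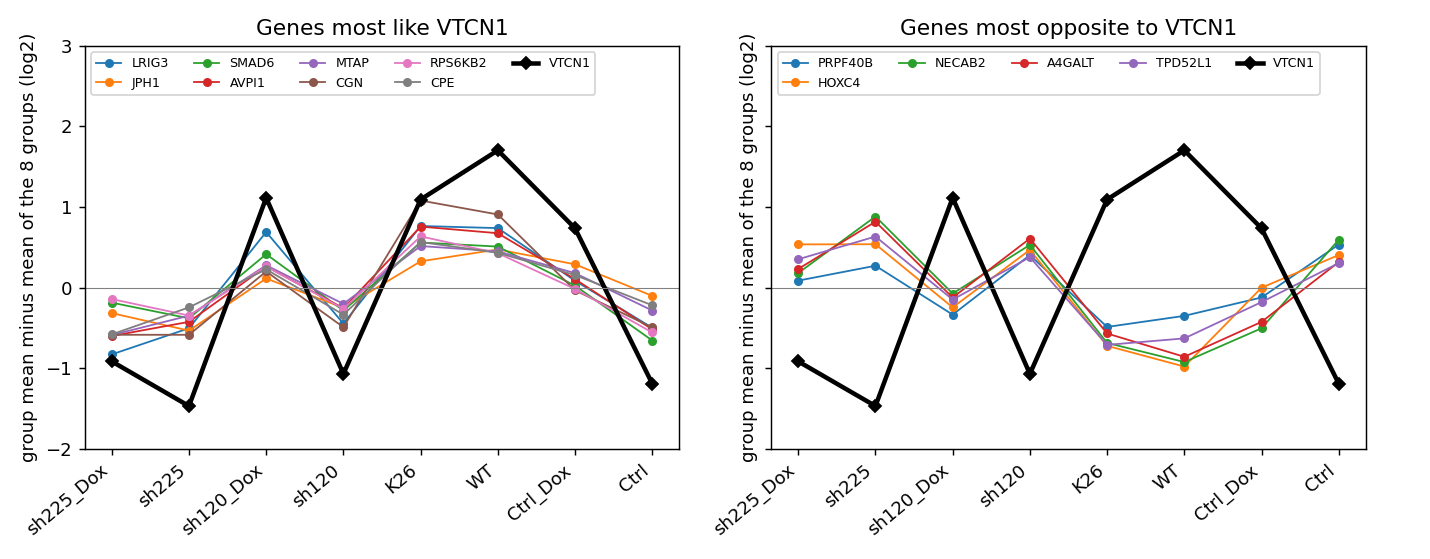
Group means of VTCN1 (black) and of the 8 genes most like it (left) and the 5 most opposite (right), each minus its own mean over the 8 groups, on the log2 scale. Like genes are higher in sh120_Dox, K26, WT and Ctrl_Dox than in sh120 and Ctrl, over a smaller span than VTCN1, and opposite genes are lower there, while the steps from sh225 to sh225_Dox and between K26 and WT differ from gene to gene.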

How the data were processed

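Illumina bead arrays measured RNA of 16 samples. For each probe and array the authors deposited an intensity, unnormalized, and a detection p-value. GenomeStudio 1.6.0 is named in the submitters' processing notes. The linear intensities of the authors' series matrix, whose normalization the sources used here do not state, served as an alternative. Members, gene lists and tests were chosen with earlier results of these data known.

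The neqc function (limma 3.58.1, R 4.3.3) applied normexp correction, taking negative controls from the detection p-values, an offset of 16, quantile normalization and log2. Of 24530 probes, 23266 had 1 gene symbol and 1264 none. The 11258 probes with a detection p below 0.01 on 2 or more arrays were tested separately. A limma fit of 8 group means (lmFit, contrasts.fit, trended eBayes, 8 residual degrees of freedom) gave 13 comparisons, with Benjamini-Hochberg adjustment over all probes and a call at adjusted p under 0.05. The comparisons with untreated sh225 were added after seeing the data. The fit was tested on simulated data.

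All member probes were named. Of each list, every called probe was named up to 6, and otherwise the 4 with the largest change. Likeness named the 8 highest and 5 lowest r. Alternatives changed the filter, background, normalization, table, variance model, weights, replicate block, samples fitted and each array left out.

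Replicate numbers are shared by all groups, and over 28 pairs of groups the deviations of same-numbered arrays correlated between -0.343 and 0.310, median 0.030, so the numbers were taken as names only. Motifs were searched in RefSeq windows of GRCh38.p14.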

Additional observations from a re-analysis of the deposited data

Results flagged for a closer look

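The effect of Dox differed between hairpin lines, by a test of the difference itself (limma, adjusted over all probes, log2 scale), in the following genes around the B7 ligands. Between sh225 and Ctrl it differed for IRF9 (3.31, adjusted p = 1.32e-09), CEACAM1 (2.22, adjusted p = 7.57e-05, and 1.12, adjusted p = 0.00267, by its 2 probes), IRF1 (1.51, adjusted p = 0.000238), BTN2A1 (0.99, adjusted p = 0.00472), IFNGR1 (0.98, adjusted p = 0.000236) and CD47 (0.81, adjusted p = 0.00944), each higher in sh225. Between sh120 and Ctrl it differed for FGL1 (2.50, adjusted p = 6.16e-05), higher in sh120. FGL1 was detected in sh120_Dox alone, and the CEACAM1 probe with the larger difference was undetected in sh225 and Ctrl_Dox, so these differences and those below for the same probes, taken with undetected arrays at their measured values, do not give a size. The bounds were 2.37-fold for FGL1 with Dox in the sh120 line and 3.02-fold for CEACAM1 in the sh225 line. They are point values under the main processing and not known minimum sizes. Over the alternatives, these log2 differences ran from 0.95 to 2.65 for FGL1 and from 0.42 to 2.22 for CEACAM1. FGL1 entered these tests through sh120_Dox alone, so its p-values add no independent support.

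Between sh225 and sh120 it differed for IRF9 (2.94, adjusted p = 6.81e-09), FGL1 (-2.51, adjusted p = 1.33e-06), CEACAM1 (1.73, adjusted p = 0.00107, and 0.77, adjusted p = 0.0380), IRF1 (1.70, adjusted p = 7.67e-05), BTN2A1 (0.80, adjusted p = 0.0235), STAT3 (0.67, adjusted p = 0.00599) and IFNGR1 (0.67, adjusted p = 0.00811). The BTN2A1 difference from sh120 was lost without sh120 replicate 1, sh120_Dox replicate 2, sh225 replicate 2 or sh225_Dox replicate 2, down to 0.55. The smaller CEACAM1 difference from sh120 was lost in 8 of 18 alternatives, and the CD47 difference from Ctrl without Ctrl replicate 1 or Ctrl_Dox replicate 1 (0.70 in each).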

How the results depend on the processing

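CD276 kept its direction and its side of the threshold in 172 of 179 values under the alternatives, its falls in K26 and WT in all 16 alternatives each, with adjusted p of up to 0.000373 in K26 and 0.00302 in WT. The 7 that reversed were all of differences not called: with Dox in the sh225 line (-0.0197 to 0.308 with each array left out), sh120 minus Ctrl Dox effects (-0.180 to 0.122 with each array left out, 0.0428 with median scaling, 0.00272 on the series matrix), untreated sh225 minus Ctrl (-0.0929 to 0.209) and untreated sh120 minus Ctrl (-0.0772 to 0.225).

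VTCN1 kept its direction throughout, but its size moved in 30 of 168 values, and the first 2 settings below leave a higher floor under dim signals by construction. Without background correction, with an offset of 50 and on the series matrix, it was 1.64, 1.83 and 1.21 in K26 against Ctrl and 2.18, 2.40 and 1.68 in WT. With Dox it was 0.31, 0.37 and 0.19 in the sh225 line, 1.59, 1.77 and 1.18 in the sh120 line and 1.34, 1.51 and 0.96 in the Ctrl line. The Dox effects differed by -1.03, -1.14 and -0.77 for sh225 minus Ctrl and by -1.28, -1.40 and -0.99 for sh225 minus sh120, and untreated sh225 minus Ctrl was -0.0860 on the series matrix. Against untreated sh225 in place of Ctrl, an alternative chosen after seeing the data, it was 2.56 in K26 and 3.17 in WT at measured values. VTCN1 was undetected on both sh225 arrays, and the bounds under the main processing were 5.63-fold and 8.59-fold. With each array left out, the sh225 Dox difference ran from 0.34 to 0.77, sh225 minus Ctrl from -1.59 to -1.16 and sh225 minus sh120 from -1.84 to -1.42. Restricting the test to probes detected on all 16 arrays gives no VTCN1 value.

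CMTM4 reversed on the series matrix, to -0.0153 in K26 and -0.0216 in WT, and the cause was not tested. List genes other than CMTM4 lost 46 calls and kept 794. The replicate block changed no member's call (CD276 in WT against Ctrl -0.91, adjusted p = 0.000106), and among list genes it ended the BTN3A2 call in WT (adjusted p = 0.0529). With it, untreated sh225 against Ctrl had 69 probes called, against 42 without, and untreated sh120 against Ctrl 4, against 2.

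Counts of probes called moved by over 1.5 times in 43 of 177 values. Dox in the sh120 line called 1698 probes, and 665 to 845 with an array left out. Dox in the Ctrl line called 299 and 136 to 309, Dox in the sh225 line 3833 and 2511 to 3680, K26 minus WT 2451 and 1098 to 1656, and WT minus Ctrl 3449 and 2043 to 2777. The sh120 minus Ctrl Dox effect called 30, and 4 to 63 over all alternatives, untreated sh225 minus Ctrl 42 and 0 to 163, and untreated sh120 minus Ctrl 2 and 0 to 39. Rows of the CD86 probes ILMN_1714602 and ILMN_1782560 did not match between the tables. Of the 8 genes nearest VTCN1, 0 were kept by Spearman rho. With 2 arrays a group and a probe near background, small VTCN1 differences were not resolved.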
